A study of Mus musculus with 90 samples.

Results

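Hepatocyte loss of the glucocorticoid receptor (GR) under caloric restriction was examined at ZT4, 4 h after lights on. The libraries were chosen by title, as the mutant and control mice on caloric restriction at ZT4, and make up 6 of the 90 libraries of the series. The 3 GR LKO mice carried the genotype GRfl/fl x Alb-Cre, in which the albumin promoter drives Cre in hepatocytes. The 3 controls, titled WT, were GRfl/fl and are given no Cre, so that an effect of Cre itself cannot be told apart from the loss of GR. All were male C57BL/6J mice of 20 to 21 weeks, as the study's reporting summary gives for the whole study and not per mouse. They were on chow given at night and lowered stepwise to 40% fewer calories. For comparison, 3 GR LKO and 3 WT mice each were taken from caloric restriction at ZT8 and at ZT12 and from night-restricted feeding without a lowered intake (control diet) at ZT4. Each library is the polyA RNA of a piece of whole liver, and other liver cells than hepatocytes contribute to every value.

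GR, encoded by *Nr3c1*, is a nuclear receptor that binds glucocorticoids and then activates or represses genes in the nucleus. In liver it is known for promoting gluconeogenesis and amino acid breakdown during fasting. In mice, which are active at night, corticosterone is low early in the light phase and rises towards dusk, so that ZT4 lies on the low side of the daily hormone cycle.

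The WT libraries held 18102573, 16736636 and 17124609 estimated counts, and the GR LKO libraries 16916906, 15712829 and 18830478. The depths of both genotypes overlapped. Levels are given as CPM, the share of a library's counts on a fixed scale, after scaling by edgeR's TMM method, and fold changes as GR LKO over WT. Differences were tested by the quasi-likelihood method of edgeR, and a gene was called when its p, adjusted over all genes tested after Benjamini and Hochberg, was under 0.05.

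The targeted gene was checked first. *Nr3c1* (ENSMUSG00000024431) stood at 86.1, 97.3 and 90.0 CPM in the WT mice and at 24.96, 26.1 and 25.5 CPM in the GR LKO mice. Every GR LKO mouse was far below every WT mouse, as the labels have it, and the GR LKO mice were close to one another. The log2 fold change was -1.84 ± 0.08 (SE, n = 3 per genotype; edgeR, Benjamini-Hochberg adjusted p = 0.000411). In bulk tissue, fewer cells of a type and less RNA per cell cannot be told apart. *Nr3c1* was also lower in GR LKO liver at ZT8 (log2 fold change -2.002), at ZT12 (-1.70) and on control diet at ZT4 (-2.01).

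The tissue label was checked with cell type markers. The 7 hepatocyte markers summed to 112338, 126588 and 136933 CPM in WT and to 120609, 105770 and 108350 CPM in GR LKO liver, with *Alb*, which encodes albumin, as the most abundant. These sums overlapped and none of the 7 genes was called, with 0 at an unadjusted p under 0.05 and 0 by DESeq2. The 10 exocrine pancreas markers summed to at most 2.28 CPM in any mouse, and 5 of them held no count in any of the 6 libraries.

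Of 12025 genes tested, 83 were called, or 0.690%, with 47 higher and 36 lower in GR LKO liver. At an unadjusted p under 0.05 there were 1755 genes, and DESeq2 called 444, among them all 83. The median log2 fold change over all genes tested was -0.0041. Fits that leave out 1 mouse also hold fewer mice, and the count changed with each. It was 23, 16 and 127 without WT mouse 1, 2 and 3, and 31, 13 and 37 without GR LKO mouse 1, 2 and 3. Of the 83 genes, 10 were called in all 6 of these fits, namely *A1bg*, *Apoa4*, *Eif4ebp3*, *Gm10233*, *Hamp2*, *Hao2*, *Lgals1*, *Nr3c1*, *Rdh16* and *Vldlr*, and 14 in none. *Lgals1*, *Rdh16* and *Vldlr* were singled out after their values were seen. All 83 kept their sign under every alternative setting in which they were tested. Scaled by total counts in place of TMM, 54 genes were called higher and 26 lower.

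Among the genes that fell, *Apoa4*, which encodes an apolipoprotein of triglyceride-rich particles, stood at 222, 211 and 204 CPM in WT and at 48.2, 43.4 and 38.7 CPM in GR LKO mice. The genotypes were well apart, with little spread in either. The log2 fold change was -2.29 ± 0.10 (SE; edgeR, Benjamini-Hochberg adjusted p = 0.000411). *Serpina3k*, a serine protease inhibitor secreted by hepatocytes, stood at 3635, 4672 and 7802 CPM in WT and at 735, 598 and 953 CPM in GR LKO mice. WT mouse 3 was the highest, and no mouse of one genotype reached the range of the other. *Serpina3k* had a log2 fold change of -2.82 ± 0.31 (SE; adjusted p = 0.0213, edgeR, Benjamini-Hochberg), and its adjusted p went up to 0.1099 when 1 mouse was left out (lost without WT mouse 2 or any 1 of the 3 GR LKO mice). It lies in a family of near-identical *Serpina3* copies, between which the authors' counting could split reads. *Eif4ebp3*, which encodes an inhibitor of cap-dependent translation, stood at 16.8, 17.3 and 14.6 CPM in WT and at 3.16, 1.93 and 2.27 CPM in GR LKO liver. Its levels were low in all GR LKO mice, without overlap (log2 fold change -2.72 ± 0.20 SE).

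The other genes that fell most were *Acnat2*, *Dct*, *Cyp17a1*, *Slc3a1* and *Tmem51*, with log2 fold changes between -2.77 and -1.58. With 1 mouse left out, *Slc3a1* was called in 3 of 6 fits and each of the others in 1 of 6 (adjusted p up to 0.172, edgeR, Benjamini-Hochberg). *Slc3a1*, a subunit of a transporter of cystine and basic amino acids, stood at 47.3, 41.0 and 51.5 CPM in WT and at 16.6, 12.1 and 8.23 CPM in GR LKO mice. The genotypes did not overlap. *Cyp17a1*, a steroid hydroxylase, was low in both genotypes, at 7.74, 9.51 and 13.5 CPM against 2.92, 1.43 and 2.16 CPM. *Gm10273* held 7.68, 4.82 and 4.49 CPM in WT and no count in any GR LKO mouse, which makes it at least 32.6-fold lower against a floor of 3 counts per library; its call was lost without WT mouse 2 and in the fit of all 36 caloric restriction libraries (edgeR, Benjamini-Hochberg adjusted p = 0.0739 and 0.309). *Acnat2* has a close paralog and is uncertain for the same reason as *Serpina3k*.

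Among the genes that rose, *Hao2*, a peroxisomal 2-hydroxy acid oxidase, stood at 0.159, 0.556 and 0.185 CPM in WT and at 11.9, 19.1 and 20.4 CPM in GR LKO mice. It was close to 0 in every WT mouse and present in every GR LKO mouse. The log2 fold change was 5.83 ± 0.42 (SE; edgeR, Benjamini-Hochberg adjusted p = 0.00294). *Hamp2*, a paralog of the iron hormone hepcidin, stood at 14.0, 24.7 and 15.9 CPM in WT and at 408, 271 and 348 CPM in GR LKO mice. All GR LKO mice were high, and the log2 fold change was 4.23 ± 0.26 (SE; adjusted p = 0.00242, edgeR, Benjamini-Hochberg). *A1bg*, a plasma protein gene, stood at 5.03, 6.55 and 4.25 CPM in WT and at 101, 225 and 151 CPM in GR LKO mice. The WT mice were low and alike, and the GR LKO mice were high with a wider spread (log2 fold change 4.91 ± 0.34 SE).

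**Figure D1:**
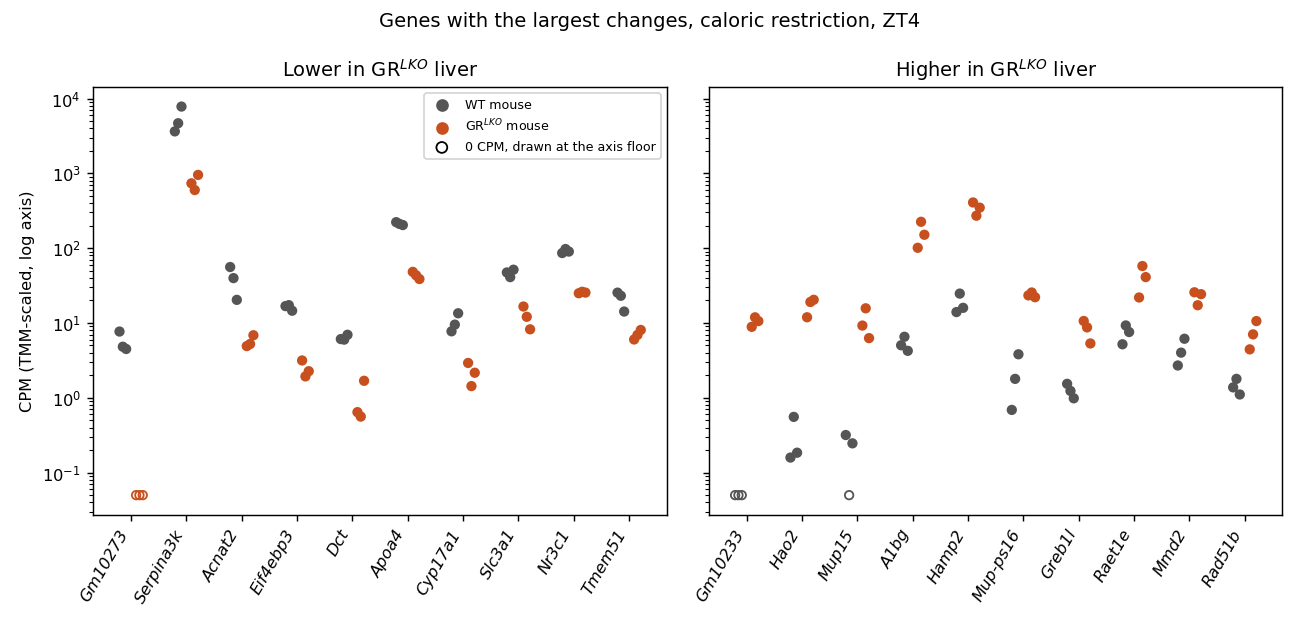
CPM on a log axis in each mouse for the genes that fell most (left) and rose most (right) in GR LKO liver among the called genes with at least 5 CPM in one genotype. Each point is 1 mouse, and open points are values of 0 drawn at the floor of the axis. The mice of the genotypes do not overlap for any gene shown, which the choice of these genes required.

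The other genes that rose most were *Gm10233*, *Mup15*, *Mup-ps16*, *Greb1l*, *Raet1e*, *Mmd2* and *Rad51b*, and with 1 mouse left out all but *Gm10233* were called in only 1 or 2 of 6 fits (edgeR, Benjamini-Hochberg adjusted p up to 0.158). *Gm10233*, a processed pseudogene, held no count in any WT mouse and 8.88, 11.9 and 10.6 CPM in the GR LKO mice, at least 59.4-fold higher against 3 counts per library. This direction was not seen in the other comparisons: the log2 fold change was -0.78 at ZT8 and -1.84 at ZT12 (edgeR, Benjamini-Hochberg adjusted p = 0.728 and 0.497), and on control diet at ZT4 it held no count in any of the 6 mice. Its level also went from 0 to several CPM between mice of one group, as in WT at ZT12 with 0, 7.53 and 12.7 CPM (scaled over all caloric restriction libraries). *Gm10273* did so too, with 12.2, 0 and 0 CPM in WT and 8.81, 0 and 4.83 CPM in mutant liver at ZT12. *Mup15* stood at 0.318, 0 and 0.246 CPM in WT and at 9.23, 15.7 and 6.28 CPM in GR LKO liver. It was not called in the fit of all 36 caloric restriction libraries (edgeR, Benjamini-Hochberg adjusted p = 0.0672). Its log2 fold change was 6.35 at ZT8 and 2.22 at ZT12 (edgeR, Benjamini-Hochberg adjusted p = 0.0125 and 0.266). On control diet at ZT4 it was -0.09 (adjusted p = 0.985, edgeR, Benjamini-Hochberg). There *Mup15* stood at 490, 98.6 and 1049 CPM in WT and at 213, 1127 and 197 CPM in GR LKO mice. *Mup15* and the pseudogene *Mup-ps16* belong to the major urinary proteins, a cluster of near-identical genes on chromosome 4, and their values are uncertain. The same holds for *Hamp2* and *Raet1e*, which have close copies, and pseudogenes such as *Gm10233* can take reads of their parent gene. *Hao2* lies on chromosome 3 from 98874521 to 98893239, *Apoa4* on chromosome 9 from 46240696 to 46243459 and *Serpina6* on chromosome 12 from 103646630 to 103657212 (GRCm38).

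Of 26 tested genes of the list of GR and its classical targets, 2 were called, both lower, with a median log2 fold change of -0.55, against 83 of 12025 and a median of -0.0041 over all genes tested. At an unadjusted p under 0.05, 11 of the 26 were lower and 1 higher, and DESeq2 called 8 lower and 0 higher. The mice of the genotypes did not overlap for 12 of the 26, against 2585 of all 12025 genes, or 21.5%. The called genes were *Nr3c1* itself and *Tsc22d3*, the gene of the leucine zipper protein GILZ. *Nr3c1* is the targeted gene, so that its fall was set by the design, and it is counted in each of the numbers above. *Tsc22d3* stood at 48.8, 49.5 and 54.5 CPM in WT and at 28.0, 32.9 and 34.1 CPM in GR LKO mice. The genotypes did not overlap, but the difference was small (log2 fold change -0.69 ± 0.10 SE; edgeR, Benjamini-Hochberg adjusted p = 0.0360), and it was not called when any 1 of the 6 mice was left out (adjusted p up to 0.158). *Fkbp5*, a co-chaperone of GR, had 69.4, 59.0 and 36.6 CPM in WT and 33.1, 27.6 and 34.7 CPM in GR LKO mice (edgeR, Benjamini-Hochberg adjusted p = 0.191). WT mouse 3 lay close to the GR LKO range, and without this mouse the gene was called (adjusted p = 0.0319, with 0.0170 to 0.437 over all alternatives).

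*Per1*, a clock gene with a GR response element, was not called, at 41.7, 37.9 and 27.8 CPM against 19.9, 7.54 and 12.3 CPM. *Zbtb16*, *Igfbp1* and *Pck1* were likewise not called (edgeR, Benjamini-Hochberg adjusted p = 0.107, 0.129 and 0.129), although their mice did not overlap. DESeq2 called *Per1*, *Zbtb16*, *Igfbp1*, *Pck1* and *Fkbp5*, and the fit of all 36 caloric restriction libraries called *Per1* (adjusted p 0.000349 to 0.295 over all alternatives for *Per1*). *Lpin1*, which encodes a phosphatidate phosphatase, had the lowest fold change of the GR targets named here, with 84.0, 21.9 and 102.6 CPM in WT and 5.73, 0 and 9.86 CPM in GR LKO mice (log2 fold change -3.71 ± 0.98 SE; edgeR, Benjamini-Hochberg adjusted p = 0.168). The mice did not overlap but varied widely, and the gene was called under no alternative. *Lcn2* and *G0s2* were also without overlap, at log2 fold changes of -2.41 and 0.84, and were not called by edgeR (Benjamini-Hochberg adjusted p = 0.172 and 0.1999), while DESeq2 called *Lcn2* alone of these 3. *Mt1*, a metallothionein, had 13.0, 6.73 and 8.0 CPM in WT and 13.9, 12.5 and 9.60 CPM in GR LKO mice, which overlap. *Tat*, the tyrosine aminotransferase, had a log2 fold change of -0.19 with overlapping mice. *Errfi1* and *Bcl6* varied widely within a genotype, the latter between 4.08 and 54.6 CPM in WT and between 4.69 and 61.9 CPM in GR LKO mice.

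Of the 10 genes of glucocorticoid metabolism and receptors, 1 was called, against 83 of 12025 genes tested, or 0.690%. At an unadjusted p under 0.05, 1 was higher and 1 lower, and DESeq2 called 1 higher and 0 lower. *Serpina6*, which encodes the corticosteroid-binding globulin of plasma, stood at 325, 398 and 335 CPM in WT and at 1040, 858 and 787 CPM in GR LKO mice. Every GR LKO mouse was above every WT mouse (log2 fold change 1.34 ± 0.13 SE; edgeR, Benjamini-Hochberg adjusted p = 0.0150), and the call was lost without WT mouse 1 or GR LKO mouse 2 (adjusted p up to 0.0973).

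Of 32 tested genes of fatty acid oxidation, ketogenesis and PPARalpha targets, 4 were called, all higher, with a median log2 fold change of 0.23. At an unadjusted p under 0.05 there were 16 higher and 1 lower, DESeq2 called 9 higher and 0 lower, and 20 of the 32 were without overlap between the genotypes, against 21.5% of all genes tested. Over all 12025 genes 900 were higher and 855 lower at an unadjusted p under 0.05, and 0.690% were called. PPARalpha is the fasting-activated nuclear receptor of fat oxidation. *Acaa1b*, a peroxisomal thiolase with the near-identical copy *Acaa1a*, stood at 738, 785 and 859 CPM in WT and at 1493, 1483 and 1662 CPM in GR LKO mice. *Bdh1*, of ketone body synthesis, and *Plin2*, a lipid droplet coat protein, had log2 fold changes of 0.78 ± 0.10 and 0.86 ± 0.13 (SE). In these 3 genes the genotypes were apart. Each of the 3 calls was lost without some mice: *Acaa1b* without WT mouse 2 or GR LKO mouse 2, and *Bdh1* and *Plin2* without WT mouse 1 or 2 or any GR LKO mouse, with adjusted p of up to 0.158 (edgeR, Benjamini-Hochberg). None of the 34 tested peroxisome genes was called by edgeR, with 7 higher and 1 lower at an unadjusted p under 0.05 and 4 higher and 1 lower by DESeq2.

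Of 24 genes of cholesterol synthesis and uptake, 2 were called, both lower, with a median log2 fold change of -0.41, and 3 of the 24 had a fold change above 0. At an unadjusted p under 0.05, 16 were lower and 0 higher, DESeq2 called 9 lower and 0 higher, and 15 of the 24 were without overlap, against 0.690% of all genes tested that were called and 21.5% without overlap. *Fdps*, the farnesyl diphosphate synthase, stood at 323, 318 and 305 CPM in WT and at 207, 189 and 161 CPM in GR LKO mice. *Hsd17b7*, an enzyme of late sterol synthesis, stood at 119, 112 and 98.5 CPM against 71.7, 74.2 and 72.4 CPM. Both were without overlap, and both calls were lost without WT mouse 1 or 2 or any GR LKO mouse (adjusted p up to 0.175, edgeR, Benjamini-Hochberg).

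Over all 12025 genes tested 0.690% were called, and 900 were higher and 855 lower at an unadjusted p under 0.05. Of 32 tested sex-biased liver genes, 3 were higher (*Hao2*, *Mup15* and *A1bg*) and 1 lower (*Cyp17a1*), with a median of -0.38. The log2 fold changes of the list ran from -3.82 to 5.83. It was not split by the sex that a gene favours, so its median gives no direction by sex. DESeq2 called 6 higher and 2 lower, and 7 each were higher and lower at an unadjusted p under 0.05. The summed level of this list was 8505 CPM in WT mouse 3, against 2675 and 3372 CPM in the other WT mice and 4074 to 4761 CPM in GR LKO liver. Of 44 acute phase, complement and coagulation genes, 2 were called higher, among them *Serpina6*, against 0.690% of all genes tested that were called. *Serpina3k* and *Hp* were called lower, with a median of -0.17 for the list. Here 4 were higher and 13 lower at an unadjusted p under 0.05, and DESeq2 called 3 higher and 8 lower. *Hp*, which encodes haptoglobin, stood at 1834, 1480 and 1582 CPM in WT and at 992, 907 and 956 CPM in GR LKO mice.

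In bile acid metabolism 2 of 26 tested genes were called, *Abcc3* higher and *Cyp27a1* lower, and in lipid synthesis 2 of 29, *Cidec* higher and *Lpin2* lower. The share called over all genes tested was 0.690%, with 900 higher and 855 lower at an unadjusted p under 0.05. *Cidec* was singled out after its values were seen, and was called in 1 of the 6 fits that left out a mouse. *Gstp1* was the 1 called xenobiotic gene of 30, with 909, 860 and 1055 CPM in WT and 285, 371 and 433 CPM in GR LKO mice. It has near-identical copies. *Manf* was the 1 called gene of 27 in the heat shock and unfolded protein response, and *Slc3a1* that of 16 in amino acid transport and stress response. DESeq2 called 1 higher and 1 lower in bile acid metabolism, 8 and 3 in lipid synthesis, 2 and 6 among xenobiotic genes, 0 and 4 in the heat shock list and 0 and 2 in amino acid transport. At an unadjusted p under 0.05 these lists held 1, 10, 3, 0 and 0 higher and 5, 4, 7, 8 and 4 lower genes. With 1 mouse left out, *Abcc3* and *Manf* were called in 0 of 6 fits, *Hp*, *Cyp27a1* and *Lpin2* in 1 and *Gstp1* in 3 (edgeR, Benjamini-Hochberg adjusted p up to 0.218). The fit of all 36 caloric restriction libraries did not call *Hp*, *Abcc3* and *Manf* (adjusted p = 0.218, 0.102 and 0.295), while DESeq2 called all 6 of these genes.

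**Figure D2:**
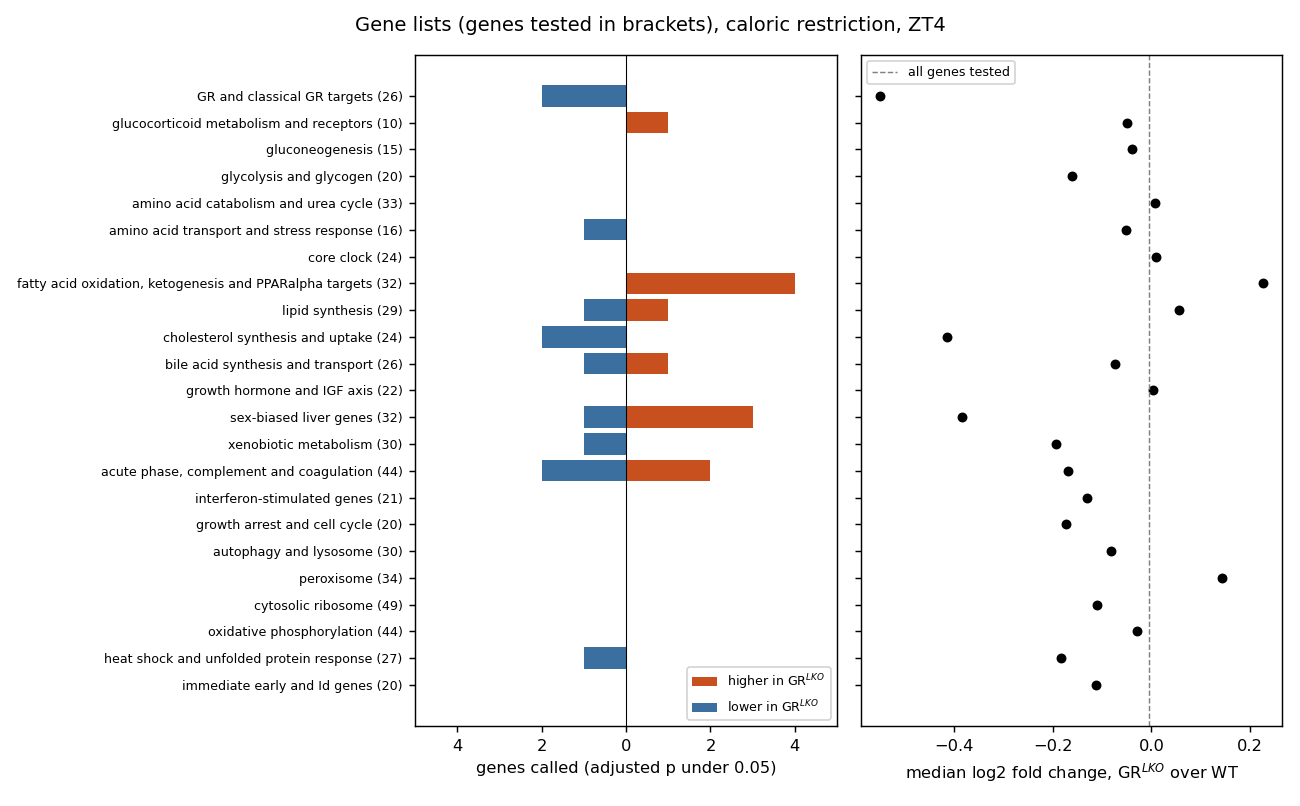
For each gene list, the number of genes called higher or lower in GR LKO liver (left, bars from 0) and the median log2 fold change, GR LKO over WT (right, points), with the median of all genes tested as a dashed line. Fatty acid oxidation has 4 genes called higher, and of the 23 process lists shown the GR target list has the lowest median, at -0.55.

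On the following lists no gene was called by edgeR, against 0.690% of all 12025 genes tested. Over all genes 900 were higher and 855 lower at an unadjusted p under 0.05, and DESeq2 called 221 higher and 223 lower. The lists of gluconeogenesis, glycolysis and glycogen, amino acid catabolism and the urea cycle, and the core clock held 15, 20, 33 and 24 tested genes. At an unadjusted p under 0.05 these held 2, 1, 3 and 2 higher and 3, 3, 5 and 2 lower genes, and DESeq2 called 0, 0, 1 and 1 higher and 2, 2, 1 and 1 lower. The medians of these lists lay between -0.16 and 0.01. The lists do not hold every gene of these pathways. *Aldoa*, a glycolytic aldolase, and *Acmsd*, an enzyme of tryptophan breakdown, are not on them and were singled out after their values were seen. Both were called lower (log2 fold change -0.52 and -1.07; edgeR, Benjamini-Hochberg adjusted p = 0.0357 and 0.0436). With 1 mouse left out, each was called in 1 of 6 fits. No gene was called by edgeR either in the growth hormone axis, where 3 were higher and 2 lower at an unadjusted p under 0.05 and DESeq2 called 2 lower, or in autophagy and the lysosome, with 2 higher and 4 lower unadjusted and 1 lower by DESeq2. Cell cycle genes held 3 lower unadjusted and 1 lower by DESeq2. The growth hormone, autophagy and cell cycle lists held 22, 30 and 20 tested genes. The cytosolic ribosome, with 49 tested genes, held 1 higher and 2 lower unadjusted and 0 by edgeR or DESeq2. The nuclear-encoded genes of oxidative phosphorylation, 44 tested, held 1 higher and 4 lower unadjusted and 0 by edgeR or DESeq2. That list holds no mitochondrially encoded subunit, and *mt-Nd6*, a complex I subunit singled out after its values were seen, was called lower (log2 fold change -0.99 ± 0.11 SE; edgeR, Benjamini-Hochberg adjusted p = 0.0213). It was called in 2 of the 6 fits that left out a mouse and not in the fit of all 36 caloric restriction libraries, and its log2 fold change was 0.04 at ZT8 and -0.14 at ZT12 (adjusted p = 0.962 and 0.665, edgeR, Benjamini-Hochberg). Interferon-stimulated and immediate early genes held 0 by edgeR, 0 unadjusted and 0 by DESeq2. Among clock genes, *Nr1d2* stood at 127, 141 and 120 CPM in WT and at 126, 127 and 129 CPM in GR LKO mice.

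Markers of other cell types gave 1 call, *Cidec*, against 0.690% of all genes tested that were called. It is on the adipocyte list, where *Plin1*, *Lep* and *Cfd* held no count in any mouse. The 8 genes of this list summed to 583, 665 and 1659 CPM in WT and to 3230, 3872 and 3282 CPM in GR LKO liver, without overlap. Its most abundant gene was *Car3*, with 575, 657 and 1651 CPM in WT and 3219, 3862 and 3273 CPM in GR LKO mice, not called with all 6 mice (edgeR, Benjamini-Hochberg adjusted p = 0.111) and called without WT mouse 3 (0.00218). With all 6 mice DESeq2 called *Car3* (adjusted p = 0.0183), as did the fit of all 36 caloric restriction libraries (0.00321), and over all alternatives its adjusted p ran from 0.00218 to 0.304. On the adipocyte list 2 of 3 tested genes were higher at an unadjusted p under 0.05 and 2 by DESeq2. The 6 endothelial markers, led by *Kdr*, summed to 172, 158 and 200 CPM in WT and to 247, 251 and 214 CPM in GR LKO liver, and all 6 had a fold change above 0 with a median of 0.44; 3 were higher at an unadjusted p under 0.05 and 2 by DESeq2, against 0 called by edgeR. *Kdr* was called without WT mouse 3 (edgeR, Benjamini-Hochberg adjusted p = 0.044), by DESeq2 and in the fit of all 36 libraries, with adjusted p of 0.00465 to 0.326 over all alternatives. The part of adipocytes and endothelial cells in the results was not tested. The 8 Kupffer and myeloid markers, led by *Cd5l*, summed to 316, 165 and 155 CPM in WT and to 251, 237 and 227 CPM in GR LKO liver, with WT mouse 1 the highest. The 6 erythrocyte markers, led by *Hbb-bs*, summed to 398, 373 and 364 CPM in WT and to 600, 371 and 459 CPM in GR LKO liver, which overlap, with 1 gene higher at an unadjusted p under 0.05 and 1 by DESeq2. The 6 stellate cell markers, led by *Dcn*, summed to 230 to 255 CPM in WT and 230 to 294 CPM in GR LKO liver, and the 5 cholangiocyte markers, led by *Spp1*, to 50.2 to 68.5 CPM and 38.8 to 60.1 CPM. The lymphocyte and neutrophil markers summed to at most 4.88 and 4.56 CPM in any mouse. No gene was called by edgeR on the Kupffer, stellate, cholangiocyte, lymphocyte and neutrophil lists, with 0 at an unadjusted p under 0.05 and 0 by DESeq2.

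The genotype effect at ZT4 was then set beside that of other mice. At ZT8 on caloric restriction 308 of 12070 genes were called (2.55%), at ZT12 1795 of 11759 (15.3%) and on control diet at ZT4 23 of 11817 (0.195%). Of the 83 genes called at ZT4, 79 were measured at ZT8 and 76 of these had the same direction; at ZT12 it was 74 of 80, and on control diet 71 of 76. Over all genes the share with the same direction was 67.8%, 58.8% and 60.2%. Of the 83 genes 39 were also called at ZT8 (47.0% of the 83 and 12.7% of the 308), 56 at ZT12 (67.5% and 3.12%) and 8 on control diet (9.64% and 34.8%). The genes called in all 4 comparisons were *Acaa1b*, *Apoa4*, *Fitm1*, *Nr3c1*, *Serpina3k*, *Slc25a10* and *Slc3a1*, of which *Fitm1* and *Slc25a10* were singled out after their values were seen.

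Whether the effect of GR loss differed between conditions was tested as an interaction. Between ZT4 and ZT12 on caloric restriction 404 of 12403 genes passed the threshold (3.26%). Between ZT4 and ZT8 it was 0 of 12480 (0%) by edgeR, with 502 at an unadjusted p under 0.05 and 25 by DESeq2. Between the diets at ZT4 it was 0 of 12362 (0%), with 746 at an unadjusted p under 0.05 and 42 by DESeq2, and it became 17 without WT mouse 3 on caloric restriction. The count against ZT12 fell to 185 and 183 without WT mouse 1 or 2 at ZT4, to 169 and 198 without GR LKO mouse 2 or 3 at ZT4, to 236 and 192 without WT mouse 2 or 3 at ZT12, and to 255 and 197 without GR LKO mouse 1 or 3 at ZT12.

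Of 27 tested genes of GR and its classical targets, 8 passed the test of the interaction between ZT4 and ZT12, all with a lower fold change at ZT12, and 19 did not, against 404 of 12403 genes (3.26%). Among those that did not pass were *Tat*, *Tdo2*, *Igfbp1*, *Angptl4* and *Sgk1* (edgeR, Benjamini-Hochberg adjusted p = 0.176, 0.137, 0.121, 0.108 and 0.528). The difference, ZT4 minus ZT12, was positive in 20 of the 27 and negative in 7, among them *Per1*, *Pck1* and *Lcn2*. *Fkbp5* averaged 52.8 ± 16.3 CPM in WT and 30.5 ± 3.60 CPM in mutant liver at ZT4, and 348 ± 36.7 and 48.9 ± 8.46 CPM at ZT12 (SD, n = 3, scaled over all caloric restriction libraries). In either genotype every mouse at ZT12 was above every mouse at ZT4, and the genotypes were farther apart at ZT12. *Tsc22d3* averaged 48.9 ± 2.75 and 30.4 ± 3.14 CPM at ZT4, and 240 ± 24.95 and 66.5 ± 7.73 CPM at ZT12. *Mt1* averaged 8.87 ± 3.19 and 11.5 ± 2.09 CPM at ZT4, and 61.2 ± 17.2 and 6.78 ± 2.22 CPM at ZT12. For *Mt1* the genotypes thus overlapped at ZT4 and were apart at ZT12. *Hao2* and *Serpina3k* had interactions against ZT12 that did not pass the threshold (edgeR, Benjamini-Hochberg adjusted p = 0.900 and 0.312).

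**Figure D3:**
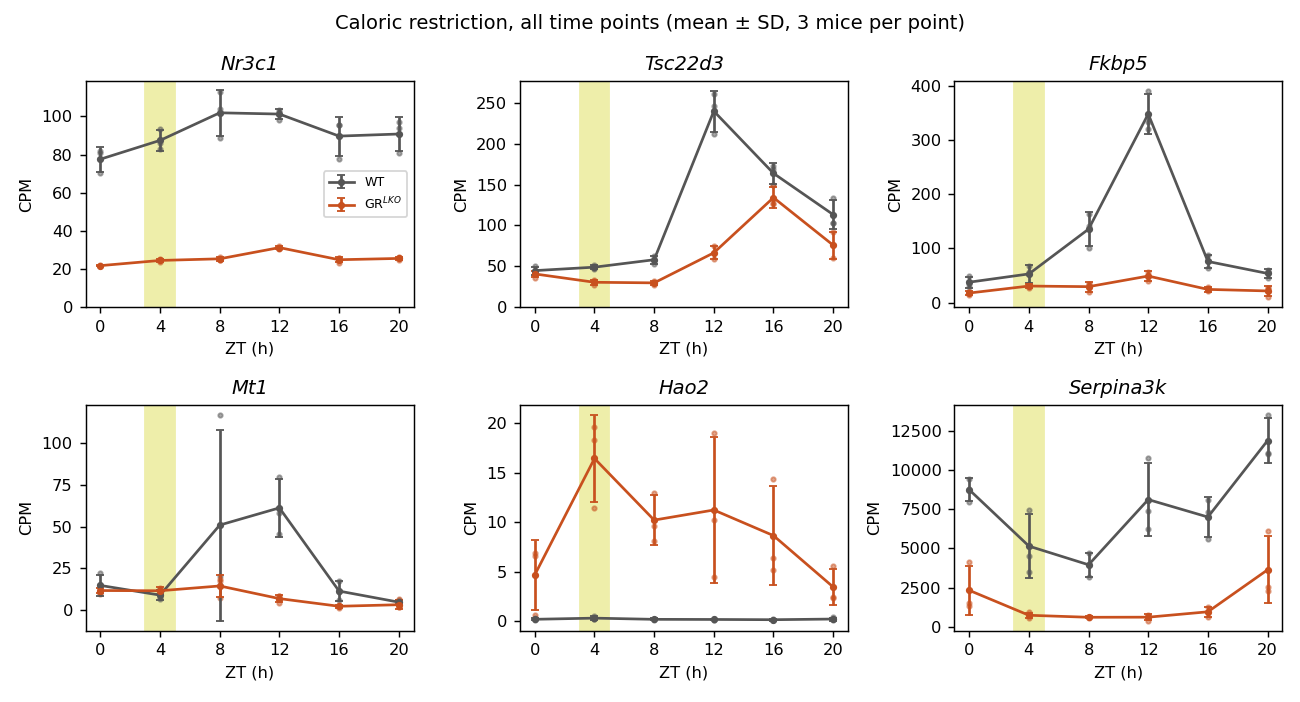
CPM of 6 genes by time of day (ZT, in h) on caloric restriction in WT and GR LKO liver, with lines through the mean, bars of 1 SD and points for the 3 mice of each genotype and time, and ZT4 shaded. *Nr3c1* is low in GR LKO mice at each time, while the WT levels of *Tsc22d3* and *Fkbp5* are highest at ZT12.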

How the data were processed

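The authors ran Salmon 1.8.0, after read checks in FastQC 0.11.9, with mm10 as the build (per the labels), summarised them to genes with tximport and deposited estimated counts, not normalized; the transcript annotation and use of strand are not given in the sources used here. Estimated counts were rounded and tested in R 4.3.3 with edgeR 4.0.16 (quasi-likelihood, TMM, filterByExpr at a minimum count of 10, Benjamini-Hochberg, threshold 0.05), each comparison on its own libraries; interactions were fitted over 4 groups. DESeq2 1.42.0, other scalings and filters, a replicate block and leaving out each mouse were alternatives. The fits were tested on simulated data, of which no result is used here. Libraries of a group were checked for duplicates, and none agreed within sampling noise (lowest chi-square per degree of freedom 12.8). Symbols and positions came from GENCODE M21, with 27291 of 27654 gene IDs matched. Named genes were *Nr3c1*; the 10 called genes that rose and the 10 that fell most, with at least 5 CPM in one genotype and no overlap; up to 4 called genes per list; GR targets with at least 5 CPM; clock genes; the 3 largest interactions in each direction where a group reached 5 CPM; and the most abundant marker of each cell type. Members and lists (23 process and 10 marker lists) were chosen with earlier results of these data known. Floors cover counting error only. Some called genes that are counted in their lists are not reported here by name.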

Additional observations from a re-analysis of the deposited data

Results flagged for a closer look

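For 18 genes named by the rules above, the effect of GR loss at ZT4 differed from that at ZT12 on caloric restriction by the test of the interaction (edgeR, Benjamini-Hochberg). The values are the log2 fold change of GR LKO over WT at ZT4 minus that at ZT12. Among GR targets they were 3.53 for *Mt1*, 2.03 for *Fkbp5*, 1.996 for *Zbtb16*, 1.16 for *Tsc22d3* and 1.06 for *Klf9*. For each of these GR targets the fold change was thus lower at ZT12 than at ZT4. The values were 2.05 for *Eif4ebp3*, 2.68 for *Clock* and -1.15 for *Nr1d1*. On the fatty acid oxidation list they were -1.07 for *Acaa1b* and -0.57 for *Bdh1*, and on the cholesterol list -0.54 for *Hsd17b7*. Of 33 tested genes of the first list, 3 passed with a negative difference and 0 with a positive one. Of 24 of the second list, 6 passed with a negative and 1 with a positive difference, against 404 of 12403 genes (3.26%). *Tmem51* had -1.93.

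Among genes with at least 5 CPM in one group, the 3 largest positive differences were 14.20 for ENSMUSG00000083840, 9.34 for *Gm15801* and 4.34 for *Cdkn1a*, and the 3 largest negative ones -2.45 for *Mapk15*, -2.33 for *Azin2* and -2.15 for *Nid2*. Below that level, *Pla2g4b*, *Gm21969* and *Vill*, singled out after their values were seen, had 5.68, -5.60 and -3.12. *Cdkn1a*, an inhibitor of cyclin-dependent kinases, averaged 1.20 ± 0.126 CPM in control and 1.77 ± 0.742 CPM in mutant liver at ZT4, and 28.7 ± 9.25 and 2.06 ± 0.210 CPM at ZT12 (SD, n = 3; CPM here are scaled over all caloric restriction libraries). ENSMUSG00000083840 is an ID without a symbol here. On caloric restriction it stood at 383, 430 and 434 CPM in the WT mice at ZT12 and at no more than 0.304 CPM in any ZT4 mouse. At ZT16 it differed as widely within a genotype, with 717, 575 and 1.06 CPM in WT and 0.174, 0.178 and 706 CPM in mutant mice. Whether its level comes from how reads were assigned was not tested, and its difference is uncertain. *Gm15801* held no count in any WT mouse at ZT4. Fitted differences of such genes depend on the prior count.

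When each of the 12 mice was left out in turn, *Eif4ebp3*, *Tsc22d3*, *Fkbp5*, *Klf9*, *Mt1*, *Clock*, *Cdkn1a*, *Gm15801* and ENSMUSG00000083840 passed in all 12 fits. *Acaa1b* passed in 10, *Mapk15* in 8, *Zbtb16* and *Azin2* in 7, *Nr1d1* in 6, *Nid2* in 4, *Tmem51* and *Bdh1* in 3 and *Hsd17b7* in 1.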

How the results depend on the processing

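The 83 genes called became 84 with RLE size factors, 80 with total counts, 97 without the filter, 93 at a minimum count of 30, 444 by DESeq2 and 358 in a fit of all 36 caloric restriction libraries (68 of the 83 among them), and 13 to 127 with 1 mouse left out. With the replicate number as a block the count was 13. Same-numbered mice did not deviate together (correlations across genes -0.00062 to -0.012), and no WT mouse correlated best with the mutant of its own number. The highest correlation of any WT mouse with a mutant was 0.014. Values this low cannot decide whether the numbers pair mice. The 404 genes of the interaction against ZT12 became 851 by DESeq2, 95 with the replicate block and 169 to 403 with 1 mouse left out. The interaction against ZT8 gave 25 genes by DESeq2, 1 without the filter and 0 to 1 with 1 mouse left out, and that between diets 42 by DESeq2 and 0 to 17 with 1 mouse left out. The cause of these changes was not tested. Over single named genes and settings, 1190 values kept their direction and side of the threshold, 242 were no longer past it, 16 came past it, 31 uncalled values moved by more than 1 SE, and 0 called values changed sign. Changes of genes near 3 counts per library were not detectable at this depth.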
